A study of Mus musculus with 232 samples.

Results

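The 8 genes described here, Zscan4c, Zscan4d, Zscan4f, Tmem92, Gm4340, Tcstv1, Tcstv3 and Zfp352, are markers of the two-cell-like state, and they were examined cell by cell in mouse embryonic stem cells (ESCs) with and without microRNAs (miRNAs). They were selected from a list of two-cell-state genes with earlier results of these data known, so their high values in a few cells are a description. Of the 8 genes, 7 had a row among the 42493 gene identifiers of the tables; the identifier of Zscan4f had none and it was not analysed here. The cells fell into 4 conditions. There were 60 mock-transfected Dgcr8-/- cells, 48 Dgcr8-/- cells that received a let-7 mimic, 58 Dgcr8-/- cells that received a miR-294 mimic, and 16 WT cells (V6.5 in the titles). These numbers are those left after the authors' filters on reads, library complexity and downregulation of miRNA targets. The last filter removed let-7 and miR-294 cells only, and its effect on the shares of positive cells was not tested. Dgcr8 encodes a partner of Drosha that is required to make canonical miRNAs, so that the 3 Dgcr8-/- conditions lacked canonical miRNAs other than the mimic added. Cells of every condition were grown in serum with LIF and 2i (PD0325901 and CHIR99021), and single cells were captured on microfluidic chips 24 hours after transfection. One chip held each condition and no culture is named, so each condition was 1 sample, conditions and chips cannot be told apart, and no test was made between conditions.

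A small and changing fraction of mouse ESCs passes through a state in which transcripts of the two-cell embryo reappear. In the embryo, the genome of the mouse is first broadly switched on at the two-cell stage, and the homeobox factor Dux (Duxf3 in the annotation) is an early activator there. The Zscan4 genes, a cluster of near-identical SCAN-domain zinc finger genes, are its best known targets in ESCs and are linked to telomere maintenance. Tcstv1 and Tcstv3 belong to a group of variable two-cell-stage transcripts, Gm4340 is a multicopy gene, Tmem92 encodes a transmembrane protein, and Zfp352 is a zinc finger gene with high expression in two-cell embryos. In a culture at one moment, most ESCs have few or none of these transcripts.

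The mimics of the conditions carried different seeds, the bases 2 to 8 that pair with targets and are in capitals. The titles name let-7i, the design text let-7b and the study's methods let-7c, whose sequences, from RefSeq on GRCm38.p6, share 1 seed.
mmu-miR-294-3p: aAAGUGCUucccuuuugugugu
mmu-let-7c-5p: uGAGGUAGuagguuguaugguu
mmu-let-7i-5p: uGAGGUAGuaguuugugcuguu
mmu-let-7b-5p: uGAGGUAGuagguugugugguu
The site that pairs with the miR-294 seed (AGCACTT) occurred once in the longest 3' UTR of Tmem92 and in none of the other 7 genes, and that of the let-7 seed (CTACCTC) occurred in none of the 8. Over 21173 genes, 15.3% and 10.1% of the longest 3' UTRs held the respective site. A match is a description of these letters only.

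The reads of the Zscan4 genes cannot be assigned cleanly to 1 copy, as the first 150 coding bases show (GENCODE M21 transcripts, GRCm38); capitals in Zscan4d mark the bases that differ from Zscan4c.
Zscan4c: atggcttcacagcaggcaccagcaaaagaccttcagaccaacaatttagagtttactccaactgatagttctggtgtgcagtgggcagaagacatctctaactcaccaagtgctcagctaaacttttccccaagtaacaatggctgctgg
Zscan4d: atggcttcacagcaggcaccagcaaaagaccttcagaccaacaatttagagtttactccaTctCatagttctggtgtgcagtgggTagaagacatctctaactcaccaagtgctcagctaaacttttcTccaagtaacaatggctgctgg
Zscan4f: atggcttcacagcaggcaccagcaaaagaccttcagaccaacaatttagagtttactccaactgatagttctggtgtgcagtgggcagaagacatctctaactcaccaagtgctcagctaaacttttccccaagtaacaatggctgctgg
Zscan4d differed from Zscan4c at 4 of these 150 bases and at 35 of 1521 coding bases, and Zscan4f at 0 and 6. Zscan4c (chr7:11005745-11010547, + strand) and Zscan4d (chr7:11161374-11166159, - strand) lie in 1 cluster. Of the 31-base words in the transcripts of Zscan4c, 91.5% occurred in transcripts of other genes, and for Zscan4d 65.03% did. The share was 100% for Gm4340 (chr10:104194042-104196522), spread over 214 other genes. It was 28.6% for Tcstv1 (chr13:119893388-119894785) and 51.001% for Tcstv3 (chr13:120316878-120318178). By contrast, 3.62% of the words of Tmem92 (chr11:94777217-94782703) were shared, which makes it the member whose counts depend least on how reads were split. Zfp352 (chr4:90218820-90225702) shared 21.5%, mainly with Zfp353-ps. Counts of Zscan4c and Zscan4d were therefore summed, as were those of Tcstv1 and Tcstv3. The 5 resulting units were the Zscan4 sum, Gm4340, the Tcstv sum, Tmem92 and Zfp352.

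Total counts per cell ranged from 513521 to 3979274 (median 1521871), and 50 cells had been sequenced in 2 runs, which were summed. In 2 cells, 1 let-7 and 1 WT, the runs differed far more than in the other 48 cells; neither cell had a count of Zscan4. Dgcr8 transcripts, of which part can remain after a deletion, averaged 89.99 ± 128 counts per 1000000 counts of the cell (CPM) in WT cells (SD, n = 16) and 35.03 ± 82.6 in mock cells (SD, n = 60), so the ranges overlapped. Pluripotency genes were counted in every condition, with summed medians of 1456 (let-7) to 4426 CPM (miR-294) over 8 genes. The median summed level of the 6 primitive endoderm and of the 6 fibroblast markers was 0 in every condition, with 3 to 6 of the 6 primitive endoderm genes and 3 to 5 of the 6 fibroblast genes at 0 in every cell of a condition. The 6 trophectoderm markers had medians from 20.4 to 67.98 CPM, and the 4 primed epiblast markers from 6.39 to 162 CPM.

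Zscan4 expression was rare and, where high, very high. A cell was called positive for a unit at 10 or more counts. For the Zscan4 sum, the lowest positive cell had 11 counts and the highest of the remaining cells had 8. Over the 4 conditions, 22 cells were positive, 25 had 1 to 9 counts and 6 had 100 or more. By condition, 0 of 16 WT cells were positive (0%, exact 95% binomial interval to 20.6%), 4 of 60 mock cells (6.67%, 1.85 to 16.2), 9 of 58 miR-294 cells (15.5%, 7.35 to 27.4) and 9 of 48 let-7 cells (18.8%, 8.95 to 32.6). The intervals overlapped for every pair of conditions, and they cover counting error only. At 1 or more counts, 25% of WT and 16.7% of mock cells were positive, the opposite order.

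**Figure D1:**
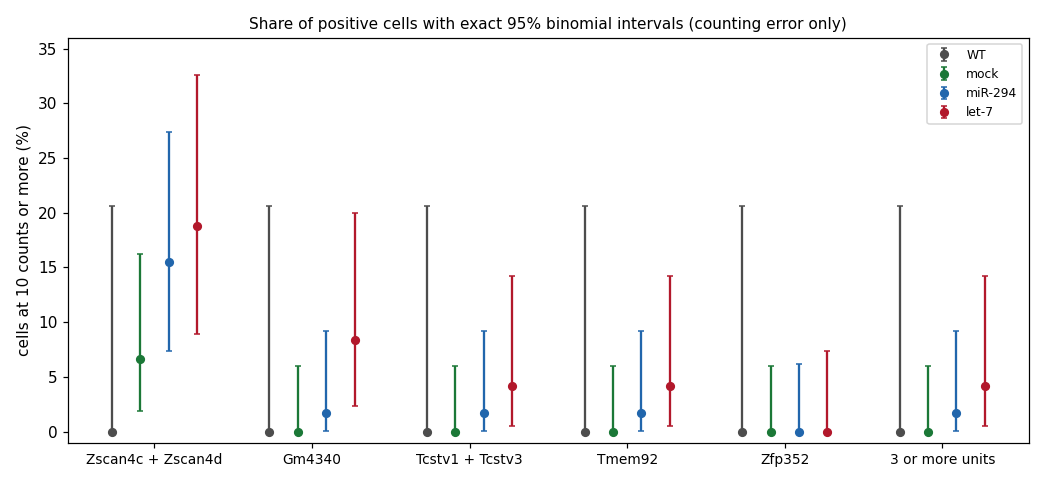
Share of cells (%, vertical axis) at 10 counts or more for each unit and for 3 or more units together (horizontal axis) in WT, mock, miR-294 and let-7 cells; bars are exact 95% binomial intervals. The Zscan4 sum runs from 0% of WT to 18.8% of let-7 cells with overlapping bars, and Zfp352 sits at 0% in all 4 conditions.

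The level of the Zscan4 sum was set by a handful of cells. The lowest and the median cell were at 0 CPM in all 4 conditions, and the highest cell was at 3.89 CPM in WT, 231 in mock, 18808 in miR-294 and 23044 in let-7. The mean ± SD over cells was 0.440 ± 1.05 CPM in WT (n = 16), 4.71 ± 30.001 in mock (n = 60), 333 ± 2469 in miR-294 (n = 58) and 791 ± 3904 in let-7 (n = 48). In this order, no 2 neighbouring conditions differed by more than the spread over their cells. That spread is not the error of a mean, so it does not decide whether the means differed. The summed counts were 7 in WT (exact Poisson interval 2.81 to 14.4), 405 in mock (367 to 446), 29511 in miR-294 (29175 to 29850) and 93338 in let-7 (92740 to 93939). These intervals cover counting error only and not the spread over cells. A single cell held 85.9% of the counts in mock, 96.99% in miR-294 and 82.8% in let-7.

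**Figure D2:**
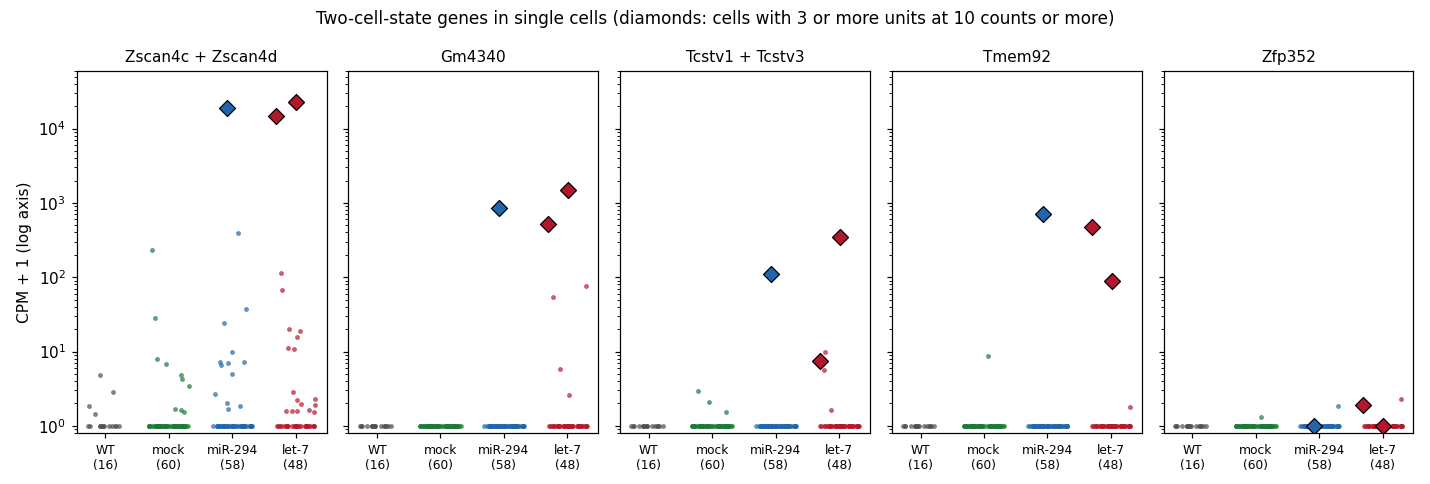
CPM plus 1 (vertical, log axis) of each unit in every cell, by condition (horizontal; cell numbers in brackets); diamonds are the cells with 3 or more units at 10 counts or more. Between the diamonds of the Zscan4 sum, at 14669 to 23044 CPM, and the next cell, at 390 CPM, no cell was found.

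The ratio of mean CPM to mock cells was 168 for let-7 and 70.7 for miR-294. Without the 2 let-7 cells and the 1 miR-294 cell that expressed several units together, the means fell to 5.61 and 8.63 CPM, and the ratios to 1.19 and 1.83. A single mock cell, cell 16, held 85.9% of the mock counts, and without it the mock mean was 0.866 CPM. With that cell left out as well, the ratios were 6.48 and 9.96. Of the 7 members, 5 had a mean of at least 5 counts over all cells (Zscan4c, Zscan4d, Gm4340, Tcstv1 and Tmem92), and all 5 were at least 2-fold higher in mean CPM in let-7 and in miR-294 than in mock cells. Over all 11186 genes with that mean, 16.8% were at least 2-fold higher in let-7 and 7.69% in miR-294. For mock over WT, 27.4% of all genes passed 2-fold. Of the 5 members, Zscan4c did, at 4.44 against 0.251 CPM (17.7). That ratio rests on 4 counts in WT and mostly on mock cell 16, which held 338 of the 383 mock counts. Without cell 16 the mock mean of Zscan4c was 0.704 CPM. Tmem92 and Tcstv1, with 5 counts each in mock and 0 in WT, had lower bounds under 2-fold. Zscan4d had 3 counts in WT, and Gm4340 had 0 counts in both conditions. The 5 members passed the filter only through the few cells in which they were high, so these counts describe those cells.

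Joint expression was found in 3 cells. A cell was counted when at least 3 of the 5 units were positive. This was the case in 2 of 48 let-7 cells (4.17%, 0.509 to 14.3), 1 of 58 miR-294 cells (1.72%, 0.0436 to 9.24), 0 of 60 mock cells (0 to 5.96) and 0 of 16 WT cells (0 to 20.6). Over the 3 Dgcr8-/- conditions together it was 3 of 166 cells (1.81%, 0.374 to 5.19). The intervals overlapped for every pair of conditions. No cell had all 5 units.

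In let-7 cell 66, the cell with the highest Zscan4 level, Zscan4c had 62180 counts and Zscan4d 15105. The same cell had 4955 counts of Gm4340, 1138 of Tcstv1, 16 of Tcstv3, 297 of Tmem92 and 0 of Zfp352. The Zscan4 sum made up 2.30% of all counts in this cell.

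In miR-294 cell 72, Zscan4c had 18181 counts and Zscan4d 10443, together 1.88% of the cell. Gm4340 had 1287 counts, Tcstv1 168, Tcstv3 0, Tmem92 1067 and Zfp352 0. This cell had the most Tmem92 of all cells, and a smaller share of Zscan4c in its Zscan4 sum (63.5%) than let-7 cells 66 (80.5%) and 20 (87.99%). Given the shared sequence and the missing row of Zscan4f, these shares depend on how reads were split, and use of the copies was not resolved.

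In let-7 cell 20, Zscan4c had 13796 counts and Zscan4d 1883, together 1.47% of the cell. Gm4340 had 552 counts and Tmem92 502, whereas Tcstv1 had 3, Tcstv3 4 and Zfp352 1. Tcstv1 was thus high in let-7 cell 66 and miR-294 cell 72 and close to 0 in let-7 cell 20, which had a Zscan4 sum of 14669 CPM, and Tcstv3 was low in all 3 cells.

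**Figure D3:**
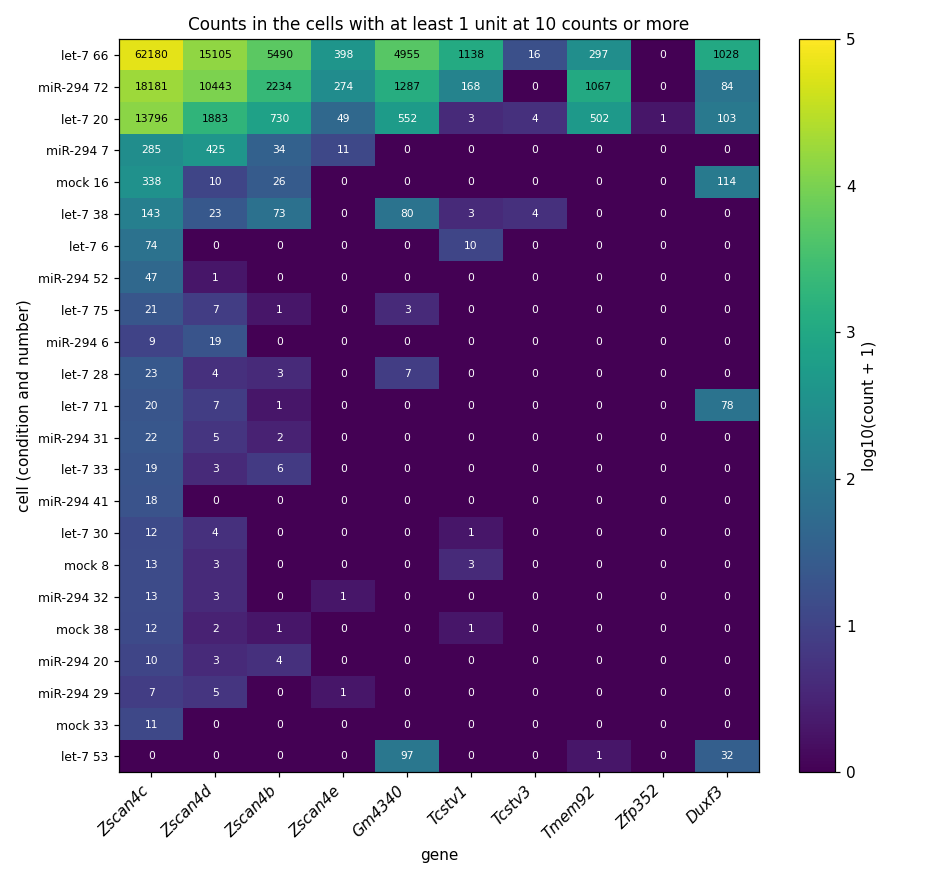
Counts (numbers in the fields; colour is log10 of the count plus 1) of members and of Zscan4b, Zscan4e and Duxf3 (horizontal) in the 23 cells with at least 1 positive unit (vertical). The top 3 cells fill most columns except Zfp352, and the lower cells hold mainly Zscan4c and Zscan4d at under 100 counts.

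Per length, in FPKM, Zscan4c reached 8508, 5902 and 5553 in let-7 cell 66, let-7 cell 20 and miR-294 cell 72, and in the remaining 179 cells at most 105. For comparison, FPKM of Pou5f1, which encodes Oct4, were 72.7, 44.2 and 449 in the same cells. Tmem92 reached 61.6, 279 and 416 FPKM there and at most 5.20 elsewhere. In let-7 cell 66 Tmem92 was below Tcstv1 (447 FPKM), and in miR-294 cell 72 it was above it (152 FPKM).

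The 3 cells differed in depth, and its bearing on their counts was not tested. By total counts, let-7 cell 66 was number 3 of 48, let-7 cell 20 number 45 of 48 and miR-294 cell 72 number 27 of 58. By genes detected they were number 10 of 48, 32 of 48 and 54 of 58 in the same order. Capture sites with more than 1 cell had been discarded by the authors on inspection of the chip.

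Tmem92 and Zfp352, examined on their own, gave opposite pictures. Tmem92 was positive in 3 cells, which were the 3 cells with joint expression, at 297, 502 and 1067 counts. The next cell, a mock cell, had 5 counts and a let-7 cell had 1. Tmem92 is itself 1 of the units that define joint expression, and let-7 cell 20 reached 3 positive units only with it. The match between Tmem92 and the cells with joint expression is therefore partly given by the definition. WT cells had 0 counts of Tmem92 in all 16 cells. Zfp352 was positive in no cell: 5 counts were found over all cells, at most 2 in 1 cell, and 1 of the 5 in let-7 cell 20. It was not detectable in 2 of the 3 cells with the highest Zscan4 levels.

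Gm4340 was positive in 5 cells. Besides the 3 cells above, these were let-7 cell 38 with 80 counts and let-7 cell 53 with 97. Cell 38 also had 143 counts of Zscan4c and 23 of Zscan4d, but cell 53 had 0 of both and 1 count of Tmem92. No mock, WT or further miR-294 cell was positive. The Tcstv sum was positive in 3 cells, at 1154 counts in let-7 cell 66, 168 in miR-294 cell 72 and 10 in let-7 cell 6, which had 74 counts of Zscan4c and no other positive unit.

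The 3 highest cells of each unit held 98.6% of all counts of the Zscan4 sum, 99.7% of Tmem92, 97.3% of Gm4340 and 98.5% of the Tcstv sum. They were the cells with joint expression, except that let-7 cell 6 took the place of let-7 cell 20 for the Tcstv sum. A gene's 3 highest cells held a median of 17.5% over the 11186 genes, and 8.05% of those genes had 50% or more there. All 5 members that passed the filter did so as well. They passed it through the few cells in which they were high, so their share is a description of those cells.

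Between the 3 cells and the rest lay a small number of cells with some Zscan4 and few other members. Next were miR-294 cell 7 (285 counts of Zscan4c, 425 of Zscan4d, no other unit), mock cell 16 (338 and 10, no other unit) and let-7 cell 38 (above). A further 16 cells had 10 to 99 counts: 3 mock, 6 let-7 and 7 miR-294 cells. The highest of them had 0.0957% of the counts of the top cell in let-7 and 0.168% in miR-294.

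The runs of a cell bear on these calls. Among the 50 cells with 2 runs, the Zscan4 sum was at 10 or more counts in both runs of 2 cells and in only 1 run of 7 cells. Let-7 cell 66 had 23699 CPM in the first and 22866 CPM in the second run. Mock cell 16 had 237 and 228 CPM. High values thus came back closely. MiR-294 cell 31 had 0 counts in the first run, which was 920760 counts deep, and 27 in the second, which was deeper at 2163422 counts. Let-7 cell 33 had 21 counts and then 1, in a run that was deeper than the first. MiR-294 cell 41 had 6 and 12 counts. MiR-294 cells 20, 29 and 32 and mock cell 8 had 0 in the first run and 12 to 16 in the second. The shares of cells positive at 10 counts include such cells; where their counts came from was not tested.

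Over all cells, the units followed the Zscan4 sum as a description of mostly 3 cells. With log2(CPM + 1) centred within conditions, Pearson's r with the Zscan4 sum was 0.78 for the Tcstv sum, 0.74 for Gm4340, 0.72 for Tmem92 and 0.17 for Zfp352. Without the 3 cells (n = 179), r was 0.49, 0.24, -0.03 and -0.06. The cells share chips and library preparation within a condition.

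The wider set of two-cell-state genes was present in the same 3 cells. Of 65 listed genes outside the members, 57 had a row; 17 of these were positive in 5 or more cells, 27 in 1 to 4 cells and 13 in none. Of the 44 genes positive in at least 1 cell, 23 were positive in all 3 cells, 38 had over 50% of their counts there, and 21 met both. Of all 18006 genes positive in at least 1 cell, 14.4%, 2.11% and 0.361% did so. The 44 genes included the 2 Zscan4 copies on the list and AF067061, which held 13.6% of the words of Tcstv1. Gm4301 and Gm4312 had the same counts, 173 in let-7 cell 20, 793 in let-7 cell 66 and 73 in miR-294 cell 72. Gm4340 shared words with 214 other genes, and which of these were listed was not tested. Reads of the units that picked the 3 cells may therefore be part of the numbers for the list. With only the 2 Zscan4 copies on the list left out, let-7 cell 66 was positive for 39 of 55 genes, let-7 cell 20 for 30 and miR-294 cell 72 for 24. The other cells were positive for 1 to 6 (mock), 1 to 12 (let-7), 1 to 8 (miR-294) and 1 to 4 (WT), with medians of 1 or 2. These genes took up 1.59%, 1.49% and 1.35% of the counts of the 3 cells. The list too was drawn up with earlier results known.

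**Figure D4:**
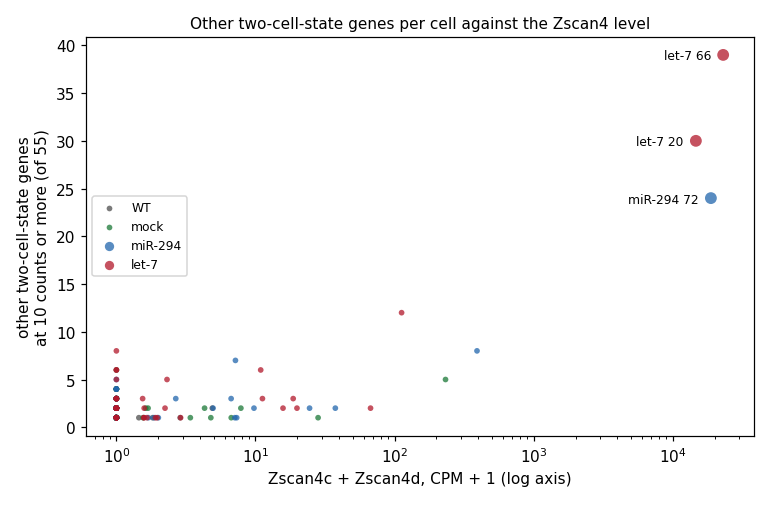
Number of other two-cell-state genes at 10 counts or more (vertical, of 55) against the Zscan4 sum in CPM plus 1 (horizontal, log axis), 1 point per cell and coloured by condition. The 3 cells with joint expression lie at 24 to 39 genes and the next cell, let-7 cell 38, at 12. Only the Zscan4 copies were left out, and AF067061, which shares words with Tcstv1, is among the 55.

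Zscan4b and Zscan4e, further copies of the cluster, followed Zscan4c. Zscan4b had 5490 counts in let-7 cell 66, 2234 in miR-294 cell 72 and 730 in let-7 cell 20, and Zscan4e had 398, 274 and 49. Given the shared sequence, part of these counts may belong to other copies.

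Duxf3, the upstream activator, was positive in 11 cells, including all 3. It had 1028 counts in let-7 cell 66, 103 in let-7 cell 20 and 84 in miR-294 cell 72. Of the other 8 cells, mock cell 16 and let-7 cell 71 were positive for the Zscan4 sum as well, with 114 and 78 counts of Duxf3. Let-7 cells 44, 53 and 70 had 187, 32 and 114 counts of Duxf3, and mock cells 36 and 69 had 18 and 35, with 0 counts of Zscan4c and Zscan4d in all 5. MiR-294 cell 30 had 13 counts of Duxf3 and 3 of Zscan4c. Duxf3 was positive in no WT cell.

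The Eif1a-like genes Gm2016, Gm4027, Gm5662 and Gm8300 resemble the translation initiation factor Eif1a. They were positive in all 3 cells and in 7 to 10 others. Gm2016 had 1945 CPM in miR-294 cell 72, 332 in let-7 cell 66 and 154 in let-7 cell 20, and at most 30.6 CPM elsewhere. Gm4027 had 830, 770 and 16.8 CPM in the same order, and at most 40.9 elsewhere. Gm8300 had 547, 212 and 129 CPM, and at most 101 elsewhere. Eif1a itself was positive in every cell, with 216 to 348 CPM in the 3 cells against a median of 481 in the others, and only 1.12% of its counts were in the 3 cells.

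Usp17la and Usp17le, of the Usp17-like family of deubiquitinases, were counted in both let-7 cells and not in the miR-294 cell. Usp17le had 764 CPM in let-7 cell 66, 867 in let-7 cell 20 and 0 in miR-294 cell 72. Usp17la had 292, 205 and 0 CPM. Over all cells, Usp17le was positive in 4 let-7, 1 mock and 1 miR-294 cell, and Usp17la in 4 let-7 and 1 miR-294 cell. The positive miR-294 cell was in each case not cell 72. With 1 miR-294 cell of this kind, condition and cell cannot be told apart.

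BC080695, Gm13043 and Gm13119, which lie within chr4:143511343-144364419, were positive in all 3 cells and in 2 others each. Gm13119 had 3077 CPM in let-7 cell 20, 2956 in miR-294 cell 72 and 1592 in let-7 cell 66. Zfp809, a repressor of retroviruses in ESCs, was positive in 73 cells, with 155 to 177 CPM in the 3 cells and at most 151 in the others. Arg2, an arginase, was positive in 9 cells, with 161 to 392 CPM in the 3 cells and at most 90.6 in the rest. Ddit4l, an inhibitor of mTOR signalling, was positive in 51 cells and at 0 in miR-294 cell 72, and Zfp750, a zinc finger factor of the epidermis, was positive in 10 cells and at 0 counts in all 3. Gm4302 and Gm4307, named after their values were seen, were the 2 listed genes positive in all 3 cells and in no other.

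By likeness of pattern over all cells, the 12 genes closest to the Zscan4 sum, among 13299 genes positive in at least 5 cells and with the members and further Zscan4 and Tcstv copies left out, had r from 0.84 to 0.63. The median r over all genes was -0.01 and the 99th percentile 0.27. In order they were Gm13119 (0.84), the gene without a symbol ENSMUSG00000095219 (0.79), Gm7942 (0.79), Gm13043 (0.78), BC080695 (0.74), Gm6351 (0.71), A430089I19Rik (0.70), Gm5662 (0.69), Dapk2 (0.68), Gm2016 (0.65), Gm16429 (0.63) and Usp17la (0.63). Of these, 6 were on the list above. Gm7942, Gm6351, A430089I19Rik and Gm16429, which were not on it, lie together within chr5:93924777-95111158. A430089I19Rik had 3229 CPM in let-7 cell 66, 1043 in let-7 cell 20 and 89.4 in miR-294 cell 72, and at most 268 elsewhere. Gm16429 had 1555 and 414 CPM in the let-7 cells and 1.31 in miR-294 cell 72. Dapk2, a calmodulin-dependent death-associated kinase, had 94.2, 9.36 and 15.8 CPM, and up to 124 in another cell. Without the 3 cells, Gm13119 kept an r of 0.60 and Gm2016 had 0.15.

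The promoters of the members that had one in the RefSeq table (GRCm38.p6) are shown for a gene of each kind: Zscan4c, high in all 3 cells, Gm4340, high with it, and Zfp352, at or near 0 in every cell. Each window holds 250 bases before the start and 50 after it, and TATAA is in capitals.
Zscan4c, chr7:11005495-11005794, + strand: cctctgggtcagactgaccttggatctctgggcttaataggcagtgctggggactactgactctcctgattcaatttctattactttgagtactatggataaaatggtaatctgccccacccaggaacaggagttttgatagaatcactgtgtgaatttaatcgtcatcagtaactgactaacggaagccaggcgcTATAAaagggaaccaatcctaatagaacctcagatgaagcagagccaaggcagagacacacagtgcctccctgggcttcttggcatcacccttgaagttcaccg
Gm4340, chr10:104193792-104194091, + strand: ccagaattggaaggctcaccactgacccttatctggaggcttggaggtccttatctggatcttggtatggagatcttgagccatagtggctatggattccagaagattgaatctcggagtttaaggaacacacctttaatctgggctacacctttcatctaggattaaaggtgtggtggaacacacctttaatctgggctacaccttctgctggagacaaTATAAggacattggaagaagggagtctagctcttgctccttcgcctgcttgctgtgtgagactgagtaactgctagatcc
Zfp352, chr4:90218570-90218869, + strand: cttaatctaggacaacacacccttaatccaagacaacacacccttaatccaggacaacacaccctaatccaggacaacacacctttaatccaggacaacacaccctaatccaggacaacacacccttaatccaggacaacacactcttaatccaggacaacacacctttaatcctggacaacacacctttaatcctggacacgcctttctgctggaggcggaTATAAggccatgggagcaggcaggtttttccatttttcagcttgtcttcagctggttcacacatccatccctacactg
TATAA, searched on the gene's strand in the 250 bases before the start, began 54 bases before the start in Zscan4c, 30 in Gm4340 and 28 in Zfp352, and it was also found once each in Zscan4d and Zscan4f. Of all 32851 windows, 15.997% held it. Zfp352, with almost no counts, held these letters, as did Zscan4c and Gm4340. Tmem92, Tcstv1 and Tcstv3 had no such window and were not searched. Any bearing of TATAA on the levels was not tested.

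Among 8 pluripotency genes, the 3 cells were alike in some and differed in others. Klf4 was at 0 in all 3 cells, while 39 let-7 cells and 57 miR-294 cells had more. Tfcp2l1 was low, with 0, 11 and 9 cells of the condition lower in let-7 cell 20, let-7 cell 66 and miR-294 cell 72. Sall4, a zinc finger factor of pluripotent cells, was high, with 41, 47 and 56 cells lower in the same order. Esrrb differed, at 0 CPM in both let-7 cells and 307 CPM in miR-294 cell 72, where 45 cells of the condition were lower. Klf4, Tfcp2l1, Sall4 and Esrrb were named after their values were seen. Pou5f1 had 55.2 CPM in let-7 cell 20 and 90.3 in let-7 cell 66, below the let-7 median of 144, and 545 in miR-294 cell 72, above the miR-294 median of 222. Only 1 other miR-294 cell had more Pou5f1. Sox2, a partner of Oct4, had 0 CPM in let-7 cell 20, 19.1 in let-7 cell 66 (let-7 median 9.02) and 0.657 in miR-294 cell 72 (miR-294 median 37.8), where 56 of the 57 other miR-294 cells had more.

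Nanog was at 0.936 and 0.298 CPM in let-7 cells 20 and 66 and at 568 CPM in miR-294 cell 72. The let-7 condition as a whole had a Nanog median of 14.8 CPM, with cells from 0 to 717, against 552 in miR-294, 378 in mock and 589 in WT. In let-7, 7 cells had less Nanog than cell 20 and 2 had less than cell 66. Zfp42, the gene of Rex1, had 130 and 223 CPM in the let-7 cells (median 360) and 752 in miR-294 cell 72 (median 1128). Nanog was positive in 29 of the 48 let-7 cells.

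**Figure D5:**
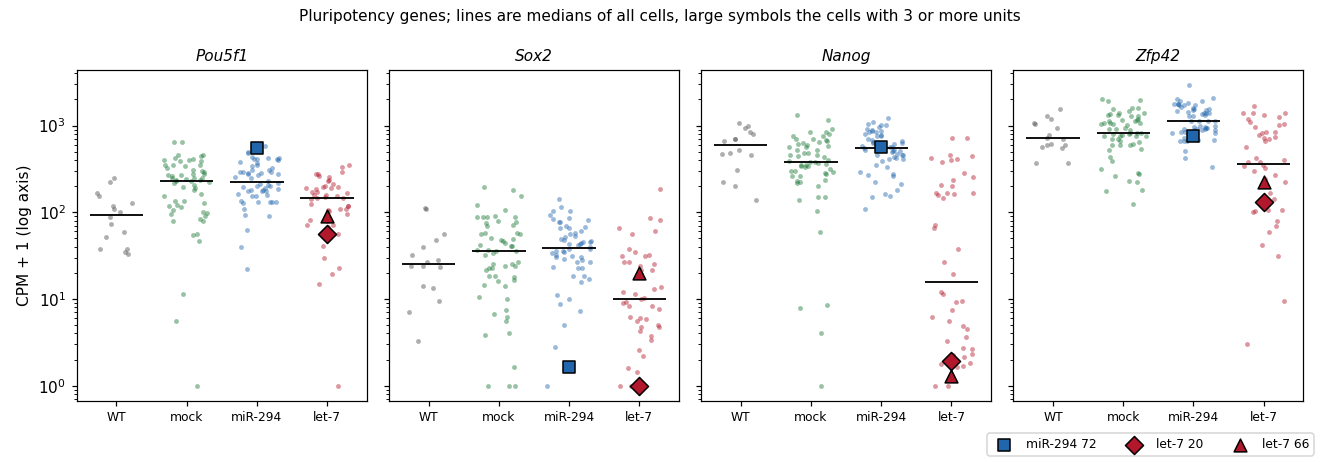
Pou5f1, Sox2, Nanog and Zfp42 in CPM plus 1 (vertical, log axis) in each cell by condition (horizontal); lines are medians of all cells of the condition and large symbols the 3 cells with joint expression. The miR-294 cell is near the top of its condition for Pou5f1 (545 CPM) and near the bottom for Sox2 (0.657 CPM), and both let-7 cells are near the bottom for Nanog.

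Genes known to repress and genes known to promote the two-cell state were listed together. The counts and the median over this list therefore give no direction for the state. All 34 listed regulators were positive in at least 5 cells. Mean CPM was at least 2-fold higher in let-7 than in mock cells for 3 of them and at least 2-fold lower for 2, and for miR-294 the numbers were 5 and 1. Over the 11186 genes with a mean of at least 5 counts, 16.8% were higher and 10.1% lower by that measure in let-7, and 7.69% and 15.8% in miR-294. The median ratio was 0.848 for let-7 and 1.15 for miR-294. For let-7, the lowest ratios were those of L3mbtl2 (0.395), a subunit of a Polycomb repressive complex, Setdb1 (0.412), a histone H3 lysine 9 methyltransferase, Max (0.520), the partner of Myc, and Pias4 (0.531), a SUMO ligase. L3mbtl2 averaged 126 ± 167 CPM in let-7 (SD, n = 48), 318 ± 291 in mock (SD, n = 60) and 536 ± 358 in miR-294 cells (SD, n = 58), and the larger SD exceeded each difference from mock. The highest were Gata2 (5.08), a GATA factor, Kat5 (3.67), the acetyltransferase Tip60, Chaf1a (2.26), a subunit of chromatin assembly factor 1, and L1td1 (1.39), an RNA-binding protein. Gata2 averaged 36.7 ± 92.3 CPM in let-7 (SD, n = 48) and 7.21 ± 28.01 in mock cells (SD, n = 60). Chaf1a averaged 76.5 ± 119 CPM in let-7 and 33.9 ± 62.7 in mock cells. None of the 8 differences from mock exceeded the larger of the SDs over cells. The SD is the spread over cells and not the error of a mean, so this does not decide whether the means differed.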

How the data were processed

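Single cells were captured on Fluidigm C1 chips and libraries made with Nextera XT. Per the study's methods, the authors assigned reads to GENCODE M4 transcripts with RSEM (version 1.2.19 in the submitters' processing notes) and deposited, for each run, expected counts and FPKM per gene. The genome build was not given in the sources used here.

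Where a cell had 2 runs, their expected counts were added, and sums were rounded. CPM are counts per 1000000 of a cell's assigned counts, and FPKM of a cell with 2 runs were averaged with the runs' totals as weights. Identifiers were matched without version to GENCODE M21 (GRCm38), and 41674 of 42493 matched. Depth was 513521 to 3979274 counts per cell. PCR reads are not independent molecules, so intervals cover counting error only.

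Each condition was 1 sample; no p-value was computed. Shares have exact (Clopper-Pearson) and sums exact Poisson 95% intervals. Ratios of mean CPM were taken over genes with a mean of at least 5 counts, and called at 2-fold. Correlations used log2(CPM + 1) centred within conditions. Genes named were the members, the 12 most like the Zscan4 sum, listed two-cell-state genes positive in at least 5 cells, the 4 highest and 4 lowest regulator ratios for let-7, and 4 pluripotency genes. Members and lists were chosen with earlier results of these data known. Methods were tested on simulated data (Python 3.11.15, pandas 2.3.3, scipy 1.17.1). Doublets were not called here, since the authors had inspected each capture site.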

Additional observations from a re-analysis of the deposited data

How the results depend on the processing

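The number of cells with joint expression kept its share within the counting interval under every alternative tried, although in let-7 it went from 4.17% to 6.25% at 1 count and to 8.33% at 2 or more units. For the Zscan4 sum, positive at 1 count gave 16.7% of mock, 39.6% of let-7, 24.1% of miR-294 and 25% of WT cells, so that WT was above mock, and positive at 100 counts gave 1.67% of mock, 6.25% of let-7 and 3.45% of miR-294 cells. Thinning each cell to 500000 counts and using the first run only each gave 6.90% of miR-294 cells. Spearman's rho with the Zscan4 sum was 0.54 for Tmem92, 0.61 for Gm4340 and 0.66 for the Tcstv sum. By construction, centring gives cells at 0 their condition's offset, which enters those ranks. A pseudocount of 10 gave r of 0.85 and 0.87 for Tmem92 and Gm4340. Without the 3 cells, chosen after seeing the data, the ratios of the Zscan4 sum to mock were 1.19 for let-7 and 1.83 for miR-294, or 6.48 and 9.96 with mock cell 16 also left out, and r was -0.034 for Tmem92, 0.24 for Gm4340 and 0.49 for the Tcstv sum. With every gene that had a count, genes past 2-fold numbered 6498 in place of 1877 for let-7, 4621 in place of 860 for miR-294, and 8870 in place of 3064 for mock over WT; the added genes have a mean under 5 counts. Leaving out the highest cell took the mean of the Zscan4 sum to 318 CPM in let-7, 8.63 in miR-294, 0.866 in mock and 0.210 in WT. Size factors, the miR-294 cells with another title prefix, 4 pairs of near-identical cells counted once, and the 2 cells with differing runs, also chosen after seeing the data, moved no share or mean beyond its interval or spread. No paired analysis was possible because no label pairs cells across conditions, and what the numbers in the titles stand for is not given. No test was made. Numbers of cells limit the shares: the exact interval of 0 of 16 WT cells reaches 20.6%.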

Other observations

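In 4 pairs of cells with neighbouring numbers, 3 in let-7 and 1 in miR-294, counts over genes correlated at r above 0.97. The let-7 pair 70 and 71 had 114 and 78 counts of Duxf3, and 0 and 27 counts of Zscan4c and Zscan4d. The miR-294 pair 20 and 21 had 13 and 0 counts of the latter. The chi-square per gene between the members of these pairs was 1.84 to 5.61, against a median of 1.54 between the runs of a cell. None of the pairs held a cell with joint expression.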
